A study of Mus musculus with 16 samples.

Results

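Stefins and cystatins are inhibitors of cysteine proteases, and 7 of their mouse genes, out of 32989 gene identifiers in the count table, are described here. The members were the listed symbols Stfa1, Stfa2, Stfa3, Stfa2l1, Cstb, Cst3 and Cst6, each matched to 1 Ensembl identifier. The list was chosen by symbol with earlier results of these data in view, so that it was in part selected on the edgeR value of Stfa2 for N1-AcSpd in CD34+ cells. Skin cells of 4 C57BL/6J mice had been grown as organoids of hair follicle stem cells (HFSCs) for 2 weeks in the three-dimensional 3D-3C culture. N1-acetylspermidine (N1-AcSpd), a polyamine carrying an acetyl group, was added to a set of cultures for 72 h. By sorting, α6+/CD34- cells were collected as progenitors and α6+/CD34+ cells as HFSCs. Each mouse gave 1 library to each of the 4 groups (untreated CD34-, N1-AcSpd CD34-, untreated CD34+ and N1-AcSpd CD34+), so that 16 libraries were compared. The cells of every group were wild type, and CD34 status was set by a surface gate, not by a lineage mark.

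Cystatins bind the active site cleft of papain-like proteases such as cathepsins B, H and L and block it reversibly. Type 1 members, the stefins, lack a signal peptide and act in the cytosol. Stefin A is made by differentiating keratinocytes and is built into the cornified envelope, and the mouse carries several copies of its gene where humans have a single CSTA. Stefin B (Cstb) is found in most cells. Type 2 members are secreted: cystatin C (Cst3) is present in most tissues and body fluids, and cystatin M/E (Cst6) is made in the upper epidermis and the hair follicle, where it restrains cathepsin L and the asparaginyl protease legumain.

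The stefin A copies lie side by side on mouse chromosome 16 (GRCm38, the assembly also called mm10). Stfa1 (ENSMUSG00000071562) spans chr16:36276951-36285373 on the plus strand and Stfa2l1 (ENSMUSG00000059657) chr16:36156811-36161953 on the plus strand. Stfa2 (ENSMUSG00000022902) spans chr16:36403992-36408457 and Stfa3 (ENSMUSG00000054905) chr16:36450537-36455392, both on the minus strand. The single-copy members are Cstb (ENSMUSG00000005054, chr10:78425669-78427622, plus strand), Cst3 (ENSMUSG00000027447, chr2:148871722-148875692, minus strand) and Cst6 (ENSMUSG00000024846, chr19:5344705-5349574, minus strand). All 7 are annotated in GENCODE as protein coding with up to 3 exons, and none overlaps another annotated gene.

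How alike the copies are decides whether their counts can be told apart, so the last 60 coding bases before the stop codon are shown for the 4 stefin A members and for BC100530 and BC117090, which are neighbours in the same cluster. These bases lie in the last coding exon, near the 3′ end that this type of library reads. They were read from the GENCODE transcripts, 5′ to 3′ on the coding strand, and capitals mark bases that differ from Stfa1. Stfa1 lies at chr16:36285233-36285292, BC100530 at chr16:36359463-36359522, BC117090 at chr16:36321725-36321784, Stfa2 at chr16:36404030-36404089, Stfa2l1 at chr16:36161810-36161869 and Stfa3 at chr16:36450612-36450671.
Stfa1: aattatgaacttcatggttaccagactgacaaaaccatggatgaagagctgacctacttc
BC100530: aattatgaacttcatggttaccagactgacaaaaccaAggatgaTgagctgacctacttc
BC117090: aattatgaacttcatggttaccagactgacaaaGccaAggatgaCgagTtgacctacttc
Stfa2: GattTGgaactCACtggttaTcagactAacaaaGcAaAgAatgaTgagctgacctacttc
Stfa2l1: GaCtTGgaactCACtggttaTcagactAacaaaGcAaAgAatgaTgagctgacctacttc
Stfa3: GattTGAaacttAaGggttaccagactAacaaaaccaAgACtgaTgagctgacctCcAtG

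The copies fell into 3 sequence groups. Over the 123 bases of the last coding exon, Stfa1 was 98.4% identical to BC100530 and 95.9% identical to BC117090. Stfa2 and Stfa2l1 were 96.7% identical to each other. Stfa3 was at most 81.3% identical to any of the other 5. Sharing was also counted over whole transcripts as stretches of 31 bases (31-mers), the default word length of Kallisto, the program the study used to place reads. Of 710 distinct 31-mers of Stfa1, 277 were also in BC100530 and 140 in BC117090, and none was in Stfa2, Stfa2l1 or Stfa3. Of 441 31-mers of Stfa2, 114 were also in Stfa2l1, which had 389. Counting any other gene, 311 31-mers of Stfa1, 147 of Stfa2 and 162 of Stfa2l1 were shared. The 382 of Stfa3, the 573 of Cstb and the 1234 of Cst3 were in no other gene, and 17 of the 4074 of Cst6 were.

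The 4 stefin A promoters also share sequence. Of the RefSeq promoters (GRCm38.p6, from 250 bases before to 50 bases after the gene start), entries were matched for Stfa1, Stfa2, Stfa2l1, Stfa3 and Cst3. The longest run found in all 4 stefin A entries within 70 bases before the start was ACCTTTAAAACCC, which begins 32 to 36 bases before the start and was picked after the sequences were seen. It was present on either strand in 9 of 32851 promoters of this length, or 0.0274%, and those 9 were Stfa1, Stfa2, Stfa2l1, Stfa3, Csta3, Cstdc3, Cstdc4, Cstdc5 and Gm7260. The starts are those of RefSeq, and by the GENCODE spans given above the stretches shown for Stfa1 and Stfa2 lie inside the genes. The run is shown in capitals within 30 bases, for Stfa1 at chr16:36277107-36277136, Stfa2 at chr16:36408374-36408403, Stfa2l1 at chr16:36156767-36156796 and Stfa3 at chr16:36455405-36455434.
Stfa1: tttcggatACCTTTAAAACCCtgagtctca
Stfa2: ttacagaaACCTTTAAAACCCtgagtctct
Stfa2l1: ttacagaaACCTTTAAAACCCtgagtctct
Stfa3: tacagataACCTTTAAAACCCcgagtctca

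Of the motifs searched on both strands, TATAAA was in none of the 5 promoters and in 13.6% of all promoters. TGANTCA, the AP-1 consensus, was in Stfa3 alone of the 5, starting 29 bases past the first transcribed base, and in 7.81% of all promoters. A match is a description of letters only.

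Library totals ran from 15480075 to 29074855 unique molecular identifiers (UMIs), each marking 1 cDNA molecule, and levels are given as scaled counts (CPM), which set all libraries to a common total. The sort marker Cd34 ran from 2.87 to 3.65 CPM in CD34- and from 43.4 to 64.0 CPM in CD34+ libraries, and the 5 keratinocyte markers (Krt5, Krt14, Itga6, Itgb4 and Trp63) summed to between 5787 and 7023 CPM. Most of that sum was Krt14, at 4598 to 5714 CPM. Since stefin A genes are also known from neutrophils, neutrophil markers were read. Ly6g, Mpo and Ltf had at most 7 UMIs in any library, and Elane, Ngp and Retnlg were matched to no row. Csf3r reached 37 UMIs. Cxcr2 was the exception and made up nearly all of the summed level of the 5 matched markers, which was 185 to 220.1 CPM in untreated CD34-, 221 to 254 CPM in N1-AcSpd CD34-, 96.4 to 117 CPM in untreated CD34+ and 118 to 149 CPM in N1-AcSpd CD34+ libraries. Its part in the stefin values was not tested. Of 3 matched macrophage markers, C1qb and Aif1 had at most 3 UMIs, while Csf1r had 69 to 136 UMIs in each library (4.01 to 5.63 CPM), and the 6 fibroblast markers summed to at most 1.52 CPM. Among markers of other immune cells, Cd52 had 23 to 110 UMIs in each library, Ptprc at most 45 and Cd3e at most 3.

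Without supplementation, the stefins and Cst6 were lower in HFSCs than in progenitors, while Cst3 was higher. Of the 6 members that could be tested, edgeR called all 6 at an adjusted p under 0.05, with 5 lower and 1 higher, against 32.1% of all 19049 genes called in either direction and 16.1% in each. The fall ranged from 1.36-fold for Cstb to 5.57-fold for Cst6. The median log2 fold change was -1.24 over the members and 0.022 over all genes. In bulk RNA, fewer cells of a type and less RNA per cell cannot be told apart.

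**Figure D1:**
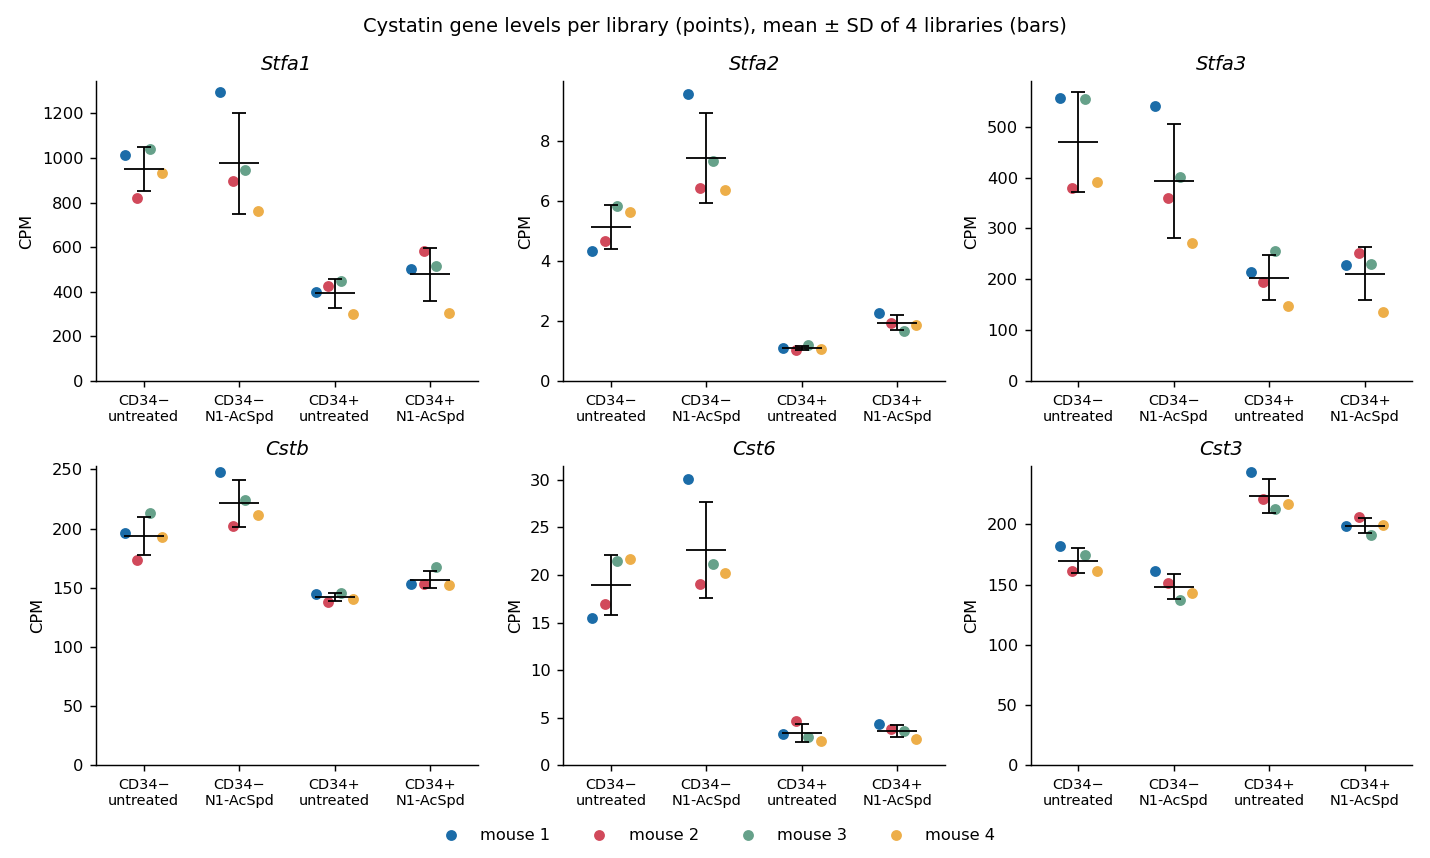
Level of 6 members in CPM (y axis, from 0) in each of the 16 libraries (points coloured by mouse), by group, with the mean ± SD of 4 libraries as black bars. In each cell type comparison the CD34- and CD34+ ranges were apart for all 6 genes, with Cst3 alone the higher in CD34+ cells. Ranges were apart for 32.1% of all genes in untreated and 34.4% in N1-AcSpd cells.

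Stfa1, with the most UMIs of the 4 stefin A members, stood at 1015, 818, 1039 and 931 CPM in untreated CD34- cells of mice 1 to 4 and at 401, 424, 446 and 300.1 CPM in untreated CD34+ cells. Every CD34- library was above every CD34+ library. The difference was -1.27 on the log2 scale (SE 0.20, edgeR adjusted p 0.000258), and Stfa1 was lower in HFSCs of 4 of 4 mice.

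Stfa3, the copy that shares no 31-mer with another gene, gave 556, 379.7, 554 and 392 CPM in untreated CD34- cells and 215, 194, 256 and 148 CPM in untreated CD34+ cells. The groups did not overlap, and mice 1 and 3 were high in both cell types. The log2 fold change was -1.21 (SE 0.24, edgeR adjusted p 0.0017), of a size near that of Stfa1.

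Stfa2 had few UMIs, between 19 and 22 in each untreated CD34+ library and between 73 and 135 in each untreated CD34- library. Its level was 4.34, 4.66, 5.84 and 5.64 CPM in untreated CD34- cells and 1.08, 1.04, 1.19 and 1.08 CPM in untreated CD34+ cells. The groups lay far apart and the spread within HFSCs was small (SD 0.0651 CPM, n = 4). Stfa2 fell by 2.22 on the log2 scale in HFSCs (SE 0.15, edgeR adjusted p 4.73e-07), more than Stfa1 or Stfa3, although the difference between members was not tested. The same untreated CD34+ libraries enter the Stfa2 treatment value that had a part in choosing the members. Its cell type value with N1-AcSpd and its interaction value share libraries with that choice too.

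Stfa2l1, the near copy of Stfa2, could not be tested, since its mean count over 16 libraries was 1.62. It had 4 UMIs in untreated CD34- cells, 18 in N1-AcSpd CD34- cells and 4 in N1-AcSpd CD34+ cells, in each group in the library of mouse 3. The other 13 libraries had 0. A count of 0 in the untreated CD34+ group allows up to 0.0422 CPM over the group on unscaled totals, taking 3 counts as the limit and counting error only. With 29.3% of its 31-mers in Stfa2, and 41.6% in any other gene, its few UMIs cannot be assigned to it with certainty.

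Cstb, the stefin found in most cells, differed less than the other tested stefins. Its untreated level was 196, 174, 213 and 193 CPM in CD34- cells and 145, 138, 146 and 140.4 CPM in CD34+ cells. The ranges were apart, and the spread between CD34+ libraries was small (SD 3.40 CPM, n = 4). The log2 fold change was -0.45 (SE 0.066, edgeR adjusted p 0.000161), lower in 4 of 4 mice.

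Cst6, the secreted inhibitor of legumain and cathepsin L, changed most. Levels were 15.5, 17.0, 21.5 and 21.7 CPM in untreated CD34- cells and 3.30, 4.72, 2.98 and 2.57 CPM in untreated CD34+ cells. No HFSC library came near a progenitor library. Cst6 fell by 2.48 on the log2 scale (SE 0.21, edgeR adjusted p 1.58e-06).

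Cst3, the secreted cystatin C, went the other way. It stood at 182.2, 161, 174 and 162 CPM in untreated CD34- cells and 244, 221, 213 and 217 CPM in untreated CD34+ cells. All CD34+ libraries were above all CD34- libraries. The log2 fold change was 0.40 (SE 0.058, edgeR adjusted p 0.00015), higher in 4 of 4 mice.

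In N1-AcSpd-treated cells the same 6 members were called in the same directions, against 33.3% of all genes called (16.5% higher and 16.8% lower). The log2 fold changes were -1.03 for Stfa1 (SE 0.20, edgeR adjusted p 0.00104), -1.93 for Stfa2 (SE 0.15, adjusted p 6.09e-07) and -0.90 for Stfa3 (SE 0.24, adjusted p 0.0104). Cstb stood at -0.50 (SE 0.066, adjusted p 5.55e-05), Cst6 at -2.63 (SE 0.21, adjusted p 9.32e-07) and Cst3 at 0.42 (SE 0.058, adjusted p 7.48e-05). Ranges of the treated groups were apart for all 6, as for 34.4% of all genes. The Stfa3 call was lost without all libraries of mouse 1 (log2 fold change -0.74, adjusted p 0.0799). In that mouse Stfa3 reached 541 CPM in N1-AcSpd CD34- cells, against 359, 400.4 and 271 CPM in mice 2, 3 and 4.

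**Figure D2:**
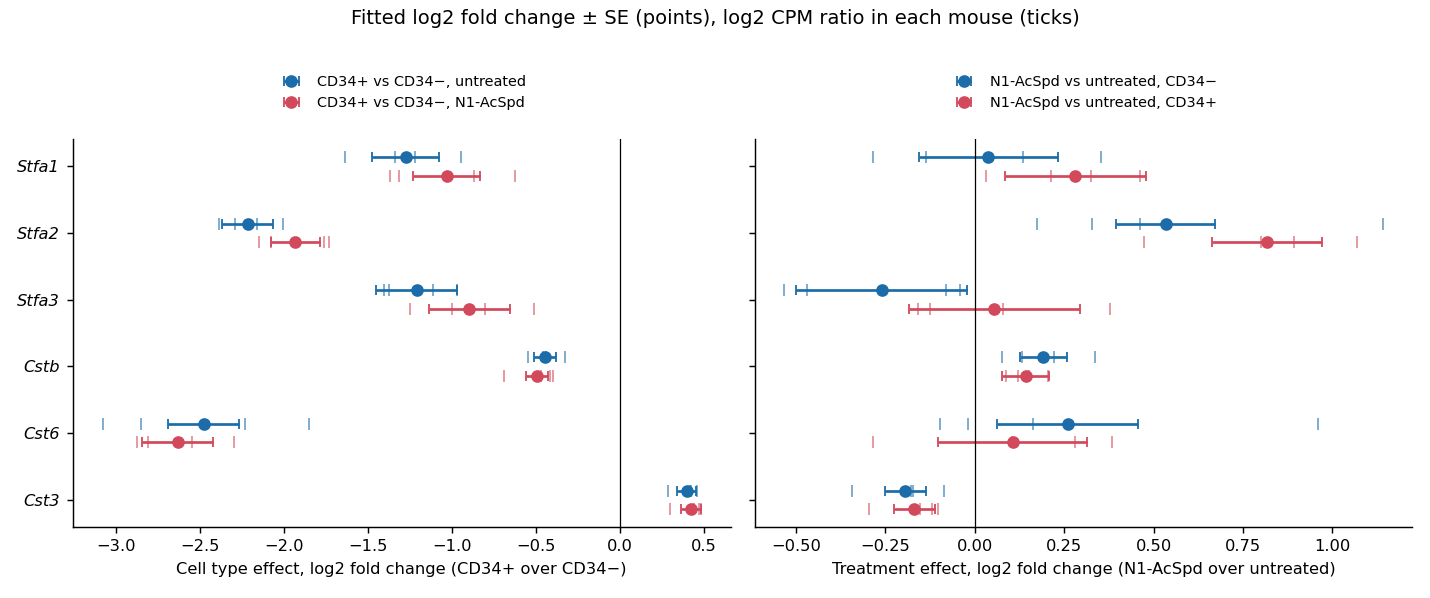
Log2 fold change of 6 members in the cell type comparisons (left x axis, CD34+ over CD34-) and the treatment comparisons (right x axis, N1-AcSpd over untreated). Points are fitted values with SE bars and ticks are log2 ratios of CPM in each of 4 mice. Cell type values lie between -2.63 and 0.42 and treatment values between -0.26 and 0.82.

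The treatment comparison in progenitors asked what 72 h of N1-AcSpd changed in CD34- cells. No member passed the test (0 of 6), while 0.614% of all genes did (0.373% higher and 0.241% lower). Stfa2, Cstb and Cst3 had an unadjusted p under 0.05, as did 2592 of all 19049 genes. DESeq2 called 558 genes, with 1 member, Cst3, among them, and gave Stfa2 no adjusted p. Stfa2 in N1-AcSpd CD34- cells stood at 9.57, 6.42, 7.33 and 6.36 CPM, and each of these libraries was above the 4 untreated ones. The log2 fold change was 0.53 (SE 0.14, edgeR adjusted p 0.0997), higher in 4 of 4 mice. It fell to 0.32 without the libraries of mouse 1 (adjusted p 0.335), and leaving out other libraries or mice gave values up to 0.65. Stfa2 was the 1 member of 6 whose ranges were apart, as for 9.04% of all genes (4.91% higher and 4.13% lower).

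Stfa1 in N1-AcSpd CD34- cells gave 1295, 899, 945 and 764 CPM, with 2 mice above and 2 below their untreated value (log2 fold change 0.04, SE 0.20, edgeR adjusted p 0.989). Stfa3 was lower in 4 of 4 mice (-0.26, SE 0.24, edgeR adjusted p 0.737 in the fit without pairing by mouse). With mouse as a block it was not called either. Cst6 rested on mouse 1, at 30.1 CPM against 19.0, 21.2 and 20.3 CPM in the other three, and was higher in 2 of 4 mice (0.26, SE 0.20, adjusted p 0.642).

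Cstb and Cst3 had small differences with the same sign in 4 of 4 mice. Cstb was 248, 202, 224 and 211 CPM in N1-AcSpd CD34- cells (log2 fold change 0.19, SE 0.066, edgeR adjusted p 0.208). Cst3 was 161, 152, 138 and 143 CPM (-0.19, SE 0.058, edgeR adjusted p 0.147). Both groups overlapped their untreated counterparts. For Cst3, DESeq2 gave -0.20 with an adjusted p of 0.0262.

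In HFSCs the treatment comparison had a part in choosing the members, and its values are given as a description with no test. edgeR called 0.325% of all genes (0.189% higher and 0.136% lower) and, of the 6 members, Stfa2 alone. Since Stfa2 was in part chosen on this value, its call cannot be set against that share. Stfa2 in N1-AcSpd CD34+ cells stood at 2.26, 1.93, 1.66 and 1.88 CPM, from 27 to 61 UMIs per library, and each library was above the 4 untreated ones (log2 fold change 0.82, SE 0.15). The call was lost in 17 of 20 runs that left out a library or a mouse, where the value stayed between 0.72 and 0.93. Cst3 was 199, 206, 191 and 199.5 CPM, below every untreated CD34+ library (-0.17, SE 0.058). Cstb was 154, 154, 168 and 153 CPM, above every untreated CD34+ library (0.14, SE 0.066). Ranges were thus apart for 3 of 6 members, and for 6.8% of all genes (3.38% higher and 3.43% lower). The 3 include Stfa2, so the same limit holds for this count. Stfa1 gave 502, 583, 517 and 307 CPM (0.28, SE 0.20), and was higher in 4 of 4 mice. Stfa3 gave 227, 252, 229.6 and 136 CPM (0.05, SE 0.24) and Cst6 gave 4.31, 3.87, 3.62 and 2.76 CPM (0.11, SE 0.21).

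The interaction asked whether the treatment effect differed between the cell types. edgeR called no member and no gene at all (0 of 19049, 0%), although 799 genes had an unadjusted p below 0.05. By DESeq2 no member was called either, while 71 genes were. The member values ran from -0.15 for Cst6 (SE 0.29) to 0.31 for Stfa3 (SE 0.34), each with an edgeR adjusted p of 1.

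Taken over the 4 groups, Stfa2 had a strict order of levels, whose step between the CD34+ groups had a part in choosing the members. Its mean was 7.42 ± 1.5 CPM in N1-AcSpd CD34-, 5.12 ± 0.732 in untreated CD34-, 1.93 ± 0.251 in N1-AcSpd CD34+ and 1.10 ± 0.0651 in untreated CD34+ cells (SD, n = 4), and no 2 neighbouring groups overlapped. Stfa1, Stfa3 and Cst6 had 2 levels instead, 1 for each cell type, with treated and untreated libraries overlapping inside it. Cstb overlapped between treated and untreated CD34- cells only. Cst3 followed the reverse order, from 224 ± 13.8 CPM in untreated CD34+ through 199 ± 6.26 in N1-AcSpd CD34+ and 169.9 ± 10.3 in untreated CD34- to 148 ± 10.5 in N1-AcSpd CD34- cells, the last pair overlapping.

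The counts of the stefin A copies were then compared within each library, where scaling plays no part. In none of the pairs compared were the counts of any library identical. Stfa1 UMIs amounted to 32.2% to 39.2% of BC100530 UMIs over the 16 libraries, with means of 37.1% ± 1.17 in untreated CD34-, 38.1% ± 1.15 in N1-AcSpd CD34-, 32.6% ± 0.402 in untreated CD34+ and 33.4% ± 0.663 in N1-AcSpd CD34+ cells (SD, n = 4). BC117090 stayed between 13.2% and 14.4% of BC100530. Each of these 3 genes shares 31-mers with the other two, and how far their counts share molecules was not tested. Gm15845, an antisense gene overlapping BC100530, also kept to 16.3% to 18.05% of it, and whether the counting used strand is not given in the sources used here. Summing Stfa1, BC100530 and BC117090 into 1 row gave cell type values of -1.14 in untreated and -0.89 in N1-AcSpd cells. BC100530 holds most of this sum, with a mean count of 42493 over the libraries, against 15474 for Stfa1 and 5939 for BC117090. The sum therefore cannot give the direction of Stfa1 alone.

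**Figure D3:**
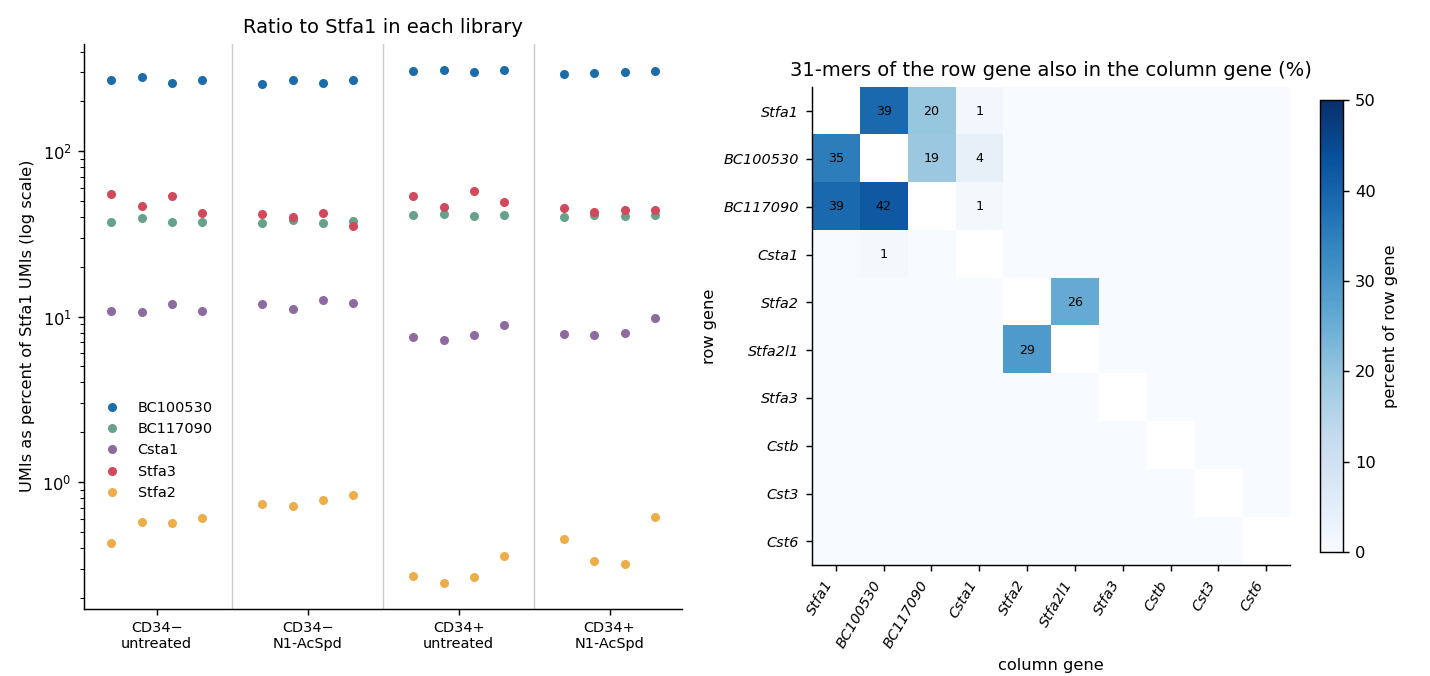
Left, UMIs of 5 genes of the stefin A cluster as a percent of Stfa1 UMIs in the same library (y axis, log scale), with 4 libraries per group in the order of mice 1 to 4. Right, percent of the distinct 31-mers of the row gene that also occur in the column gene, printed where at least 0.5%. Stfa1 shares 39.0% with BC100530 and 19.7% with BC117090, Stfa2 shares 25.9% with Stfa2l1, and Stfa3, Cstb and Cst3 share none.

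Ratios between copies shifted with N1-AcSpd both with and without shared 31-mers. Among sharing pairs, Stfa1 over BC100530 and BC117090 over BC100530 were each higher with N1-AcSpd in 4 of 4 mice in both cell types. Stfa3 UMIs were 49.2% ± 5.97 of Stfa1 UMIs in untreated and 39.9% ± 3.10 in N1-AcSpd CD34- cells, and 51.6% ± 5.10 and 44.3% ± 0.866 in CD34+ cells (SD, n = 4). The ratio was lower with N1-AcSpd in 4 of 4 mice in both cell types. Stfa2 UMIs moved the other way, from 0.541% ± 0.0779 to 0.765% ± 0.0511 of Stfa1 in CD34- cells and from 0.285% ± 0.0504 to 0.429% ± 0.136 in CD34+ cells, higher in 4 of 4 mice each time. These ratios were picked after the values were seen and carry no test. Summed over the 4 copies, of which Stfa1 made up 63.4% to 73.4%, the level was 1426 ± 193 CPM in untreated and 1376 ± 339 in N1-AcSpd CD34- cells, and 597 ± 107 and 690.4 ± 170.5 CPM in CD34+ cells (SD, n = 4).

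Stfa1 and Stfa3 also varied together between mice. After the group means were removed, their log2 CPM had a Pearson r of 0.944 over 16 libraries, while the other 14 pairs of tested members ran from 0.205 to 0.681. These points share libraries and mice. In mouse 4 both Stfa1 and Stfa3 were lowest in 3 of the 4 groups.

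Of 14 other symbols listed for the stefin A cluster, 5 were matched and tested. In untreated cells all 5 were lower in HFSCs, against 16.1% of all genes, and in N1-AcSpd cells 4 were, against 16.8%. None passed in a treatment comparison, where 0.614% of all genes did in CD34- and 0.325% in CD34+ cells. Csta1, the closest mouse counterpart of human CSTA by name, was 106 ± 15 CPM in untreated CD34- and 30.4 ± 3.18 in untreated CD34+ cells (log2 fold change -1.80, SE 0.17, edgeR adjusted p 2.95e-06). For BC100530 the value was -1.09 (SE 0.18, adjusted p 0.000442) and for BC117090 -1.15 (SE 0.19, adjusted p 0.000382). Gm5483 stood at -2.01 (adjusted p 0.015) and 2010005H15Rik at -1.90 (adjusted p 0.000249), with at most 83 UMIs in any library. Gm5483, which shares 31-mers with 1823 genes, was the 1 that missed the threshold in N1-AcSpd cells (-0.98, adjusted p 0.195). Of 13 other cystatin-domain genes, 2 were matched, Cst8 and Fetub, and neither reached the mean count of 5.

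Cysteine proteases, which cystatins hold in check, were read from a list of 11, of which 9 were tested. In untreated HFSCs 4 were higher and 1 was lower, against 16.1% of all genes in each direction. In N1-AcSpd HFSCs 3 were higher and 1 was lower, against 16.5% and 16.8% of all genes. The median log2 fold change of the list was 0.28 in untreated and 0.047 in N1-AcSpd cells, against 0.022 and -0.0068 over all genes. The higher ones were Ctso (log2 fold change 1.42, SE 0.26, edgeR adjusted p 0.000853), Ctsz (1.09, SE 0.089, adjusted p 1.26e-06), Ctsf (0.82, SE 0.11, adjusted p 0.000103) and, in untreated cells, legumain (Lgmn, 0.28, SE 0.067, adjusted p 0.0049). Legumain, which Cst6 inhibits, was 9.41 ± 0.670 CPM in untreated CD34- and 11.5 ± 0.709 in untreated CD34+ cells (SD, n = 4), the reverse of the Cst6 order. Ctsl, the cathepsin bound by stefins and by Cst6, was lower, at 413 ± 20.8 CPM in untreated CD34- and 331 ± 19.4 in untreated CD34+ cells (log2 fold change -0.32, SE 0.051, adjusted p 0.000307).

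**Figure D4:**
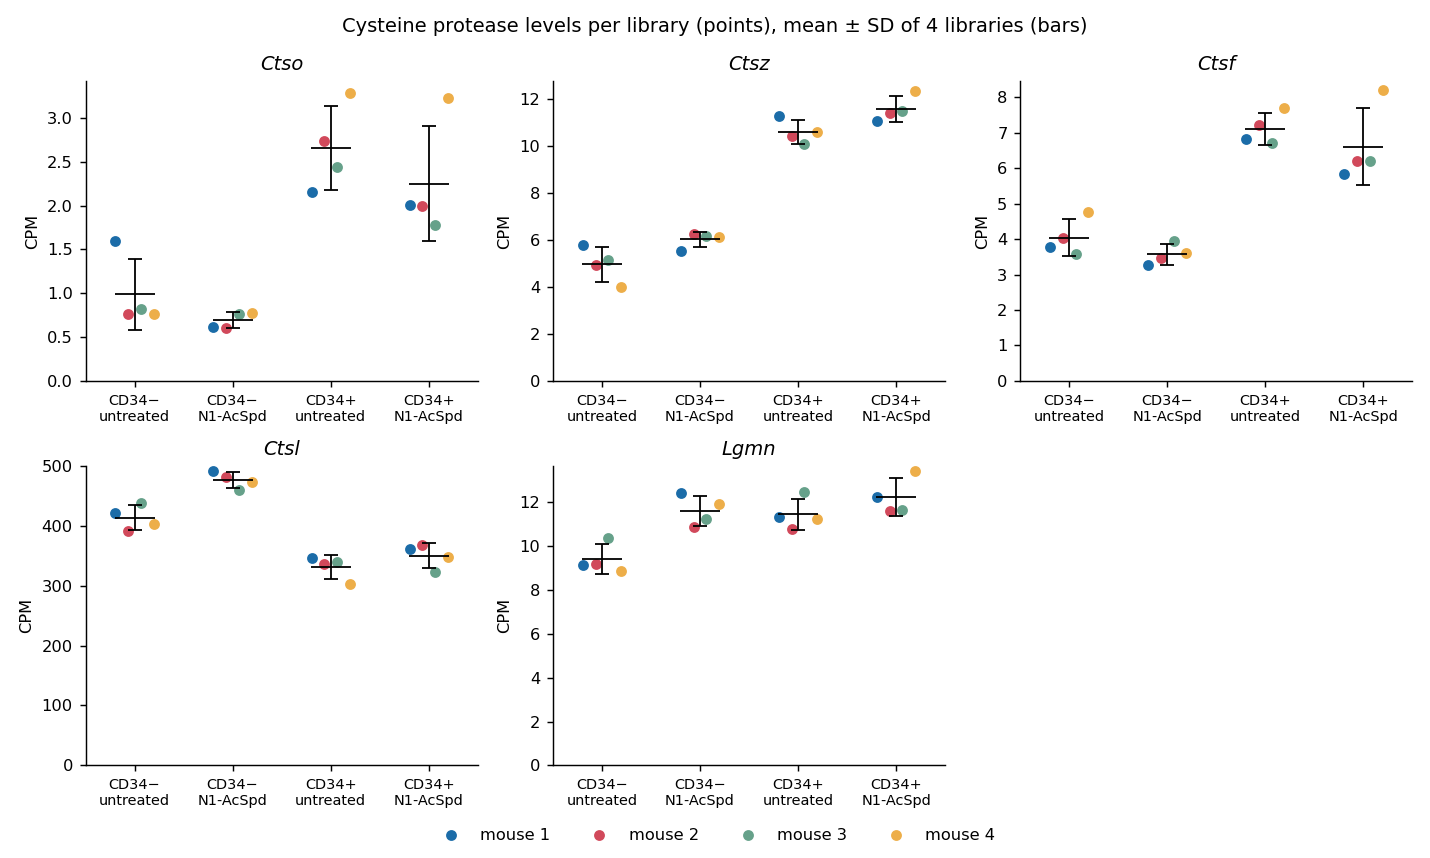
Level of the 5 cysteine proteases called in at least 1 comparison, in CPM (y axis, from 0), in each of the 16 libraries (points coloured by mouse), with the mean ± SD of 4 libraries as black bars. Ctso, Ctsz and Ctsf were higher in CD34+ cells with and without N1-AcSpd, and Ctsl was lower.

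In the treatment comparisons none of the 9 cysteine proteases tested passed, where 0.614% of all genes did in CD34- and 0.325% in CD34+ cells. Of other cathepsins, the aspartic protease Ctsd rose in N1-AcSpd CD34- cells from 409 ± 12.6 to 481 ± 12.5 CPM (log2 fold change 0.23, SE 0.042, edgeR adjusted p 0.0338), and the serine carboxypeptidase Ctsa was higher in untreated HFSCs (0.20, SE 0.067, adjusted p 0.0366).

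The cell type difference of the stefins and Cst6 ran in the direction of epidermal differentiation genes. Of 13 such genes listed, 12 were tested and all 12 were lower in HFSCs in both conditions, against 16.1% of all genes lower untreated and 16.8% with N1-AcSpd. The median log2 fold change was -2.10 untreated and -2.14 with N1-AcSpd, against 0.022 and -0.0068 over all genes. None of the 12 passed in a treatment comparison, where 0.614% of all genes did in CD34- and 0.325% in CD34+ cells. Among them were the cornified envelope protein Sprr1a (-2.61, SE 0.20, edgeR adjusted p 7.69e-07) and the crosslinking enzyme Tgm1 (-2.63, SE 0.21, adjusted p 9.44e-07) in untreated cells. The part of the share of differentiating cells in the member values was not tested.

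The genes whose log2 CPM followed each member most closely over the 16 libraries were searched among the 9422 whose mean count reached 50. These r values share the libraries and the cell type difference and carry no p. Stfa2 was nearest to Cysrt1 (Pearson r 0.987), to involucrin (Ivl, 0.987), which is a scaffold of the cornified envelope, and to the epidermal transcription factor Grhl3 (0.985). Cst6 was nearest to Ablim1 (0.993), the keratin Krt6b (0.992) and Pinlyp (0.992). Cstb was nearest to the tight junction gene Cldn4 (0.979), the late envelope gene Lce3f (0.979) and Gdpd1 (0.975). Stfa1 was nearest to BC117090 (0.999), BC100530 (0.998) and Csta1 (0.977), and Stfa3 to BC100530 (0.963), BC117090 (0.961) and the 7SL RNA gene Rn7s2 (0.953). Cst3 was nearest to Ifi27 (0.971), Serpina3g (0.969) and the MHC class I light chain B2m (0.968), known for their response to interferon.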

How the data were processed

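RNA of the 16 libraries was measured by 3′ sequencing with UMIs. The authors separated reads with FLEXBAR, placed the second read on mm10 with Kallisto, assigned UMIs with BEDTools and counted unique UMIs per gene in R. The submitters' processing notes name kallisto 0.45.0 and FastQC 0.11.7, and the annotation release is not given in the sources used here. These raw counts were deposited, and 156050 empty cells were read as 0. Symbols and positions came from GENCODE M21 on GRCm38, and 94 of 32989 identifiers had no symbol. Library totals ran from 15480075 to 29074855 UMIs, and any limit set by a count of 0 covers counting error alone.

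Genes were kept where the mean count reached 5 (19049 genes). Their counts were scaled by TMM and fitted by the quasi-likelihood method of edgeR 4.0.16 under R 4.3.3, with 1 mean per group over 16 libraries. Benjamini-Hochberg adjustment was over all genes, calls were made at an adjusted p under 0.05, and tests were two-sided. SE equals the absolute log2 fold change over the root of the F statistic. CPM used TMM-scaled totals. Members are separate genes, not replicates, and the replicate is the mouse. Per the labels, libraries with the same replicate number share 1 code, which was read as 1 animal. The paper names independent donors as the biological replicates. Same-mouse libraries had a mean correlation of deviations from group means of 0.024 (from -0.089 to 0.118, 24 pairs). The fit was repeated with other scaling (library totals, DESeq2 size factors), other filters (filterByExpr, none), with mouse as a block, with DESeq2 1.42.0, with only the compared groups, and leaving out each library or mouse. The fit was checked on simulated counts.

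Members and gene lists were chosen with earlier results of these data known. All 7 members are named. Genes of other lists are named when called in at least 1 comparison, up to the 5 with the largest fold change per list, and, by r, the 3 nearest genes to each member with a mean count of at least 50, leaving out members and unnamed gene models. Sequences were read from GENCODE transcripts and RefSeq promoters. Promoters of Cstb and Cst6 and protein sequences were not used here.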

Additional observations from a re-analysis of the deposited data

Results flagged for a closer look

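In a group of 4 libraries, a library was marked when its gap to the nearest of the others passed the critical value of Dixon's test, which chance gives in about 1 of 20 groups. Of 28 groups of members checked, 4 were marked, all of them by the library of mouse 3. For Stfa2l1 the marked libraries were at 0.173 CPM in untreated CD34-, 0.684 CPM in N1-AcSpd CD34- and 0.245 CPM in N1-AcSpd CD34+ cells, where the other libraries had 0. A group with UMIs in only 1 library is marked at any count, so the rate of 1 in 20 does not apply to these. The untreated CD34+ group of Stfa2l1 had no UMI and could not be marked. For Cstb the marked library was at 168 CPM in N1-AcSpd CD34+ cells, where the others lay between 153 and 154 CPM.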

How the results depend on the processing

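The 6 tested members kept both cell type calls and their direction under every scaling, filter, tool and block tried, apart from Stfa3 without mouse 1. Scaling by library totals shifted the all-gene median to 0.14 in untreated and 0.11 in N1-AcSpd cells, and no member changed sign. The number of members called for treatment in CD34- cells was 0, and 1 with DESeq2, which gave Stfa2 no adjusted p there. In CD34+ cells it was 1, and 0 with no filter, with DESeq2 (which gave Stfa2 no adjusted p) and with only the compared groups, and from 0 to 1 when single libraries or mice were left out. The 1 of the main fit was Stfa2, whose value in CD34+ cells had a part in choosing the members. Mouse as a block, with the pairing of libraries by animal, gave 6, 6, 0, 1 and 0 members called in the 5 comparisons, as in the main fit. Over all genes the block called 351 for treatment in CD34- and 152 in CD34+ cells, against 117 and 62 in the main fit. Members that no test called crossed 0 in some leave-out runs. For treatment they ranged from -0.129 to 0.139 for Stfa1 in CD34- cells, and in CD34+ cells from -0.0643 to 0.216 for Stfa3 and from -0.0012 to 0.307 for Cst6. For the interaction they ranged from -0.0307 to 0.0769 for Cst3, from -0.117 to 0.0209 for Cstb and from -0.306 to 0.048 for Cst6. Stfa2 rests on 19 to 61 UMIs per library in CD34+ cells, which limits its precision there.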

Other observations

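Ctss, which encodes cathepsin S and is on the list of cysteine proteases, was singled out after its values were seen. It had 674 to 1312 UMIs in the 8 untreated libraries, at most 1 UMI in 5 of the 8 N1-AcSpd libraries and 644 to 873 in the other 3. In 15 of the 16 libraries its count was identical to that of Hmgb1-ps5, a pseudogene annotated inside the Ctss gene on chromosome 3. The counts of this gene can therefore not be told apart from those of the pseudogene, and edgeR did not call it in any comparison.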
